A study of Mus musculus with 24 samples.

Results

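A set of 10 genes of the amino acid stress response was followed by symbol through a table of 54838 mouse genes, and all 10 of 10 were found there. They are the transcription factor gene Atf4, its stress-response targets Ddit3, Trib3 and Chac1, the biosynthetic enzyme genes Asns, Psat1, Phgdh and Shmt2, and the transporter pair Slc7a5 and Slc3a2. The rule selects by gene name and uses no expression value, but the 10 genes were chosen with earlier results of these data known. All 10 genes passed the filter on low values, which kept 12899 genes for testing.

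When a cell lacks amino acids or accumulates misfolded protein, kinases phosphorylate the translation initiation factor eIF2 alpha, general protein synthesis slows, and the mRNA of ATF4 is translated more efficiently. ATF4 then binds composite elements near genes for amino acid uptake and synthesis, tRNA charging and, under prolonged stress, cell death. ATF4 is thus controlled to a large extent at translation, and an mRNA level such as those given here is not a measure of its protein.

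The RNA came from organoids, which are epithelial cells grown as small structures in gel, made from mouse ventral prostate at an age of 4 months. The control organoids carry the Tmprss2-fl/fl-ERG genotype and the T-ERG organoids the Tmprss2-ERG genotype, so that both names hold the prostate gene Tmprss2 and the transcription factor ERG, whose fusion is common in human prostate cancer. Each genotype was represented by 2 clones and each clone by 5 libraries, giving 20 libraries, each from a single Matrigel dome of 30 µL seeded with 3000 cells. The title of the series places RAD21, a cohesin subunit, in prostate cancer progression, but no label names a treatment of these 20 libraries. Within a genotype the libraries are domes of only 2 clones, and whether the clones came from separate mice is not given, so a difference between genotypes is a difference between 2 clones and 2 clones.

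Values are FPKM, a read abundance per gene length and library size, and the number of reads behind them is unknown. The sum of FPKM over all genes was 728255 to 794589 in the 20 libraries, and the number of genes at 1 FPKM or more was 11829 to 12184. The prostate label was checked against marker genes: Epcam, Krt8 and Hoxb13 were present, and basal markers summed to 18857 to 26023 FPKM. Of 9 ventral prostate secretory genes, 7 stayed below 1 FPKM, and Sbpl, Pbsn, Spink1 and Msmb were at 0, in all 20 libraries. The 9 genes summed to 26.4 to 51.0 FPKM in control clone 1, 3.04 to 8.14 in control clone 2, 10.02 to 20.1 in T-ERG clone 1 and 0 to 4.6 in T-ERG clone 2, and most of the sum in control clone 1 was Defb50, at a mean of 37.7 FPKM. Fibroblast, immune and endothelial markers summed to at most 6.57, 12.3 and 0.64 FPKM.

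Atf4 (ENSMUSG00000042406, chromosome 15, 80255184 to 80257545 in GRCm38.p6) was the most abundant of the 10 genes in every clone, and the clones stood apart. In control clone 1 its 5 libraries read 221, 217, 207, 233 and 226 FPKM, against 145, 150, 144, 137 and 148 FPKM in control clone 2. The T-ERG libraries read 188, 182, 181, 176 and 169 FPKM in clone 1 and 176, 173, 163, 171 and 175 FPKM in clone 2. Both T-ERG clones therefore lay between the control clones, with no library of either overlapping a control library, while the T-ERG clones overlapped each other. Clone means were 221 ± 9.61 and 145 ± 4.93 FPKM for the controls and 179 ± 6.84 and 172 ± 5.11 FPKM for T-ERG (SD, n = 5 domes each). Atf4 fell by 0.61 ± 0.04 on the log2(FPKM + 1) scale from control clone 1 to control clone 2 (SE; limma, Benjamini-Hochberg adjusted p = 4.74e-07). Between the T-ERG clones the difference was -0.06 ± 0.04 (limma, adjusted p = 0.250). In bulk RNA, fewer cells of a type and less RNA per cell cannot be told apart, here and below, and p-values between clones measure only the spread between domes.

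**Figure D1:**
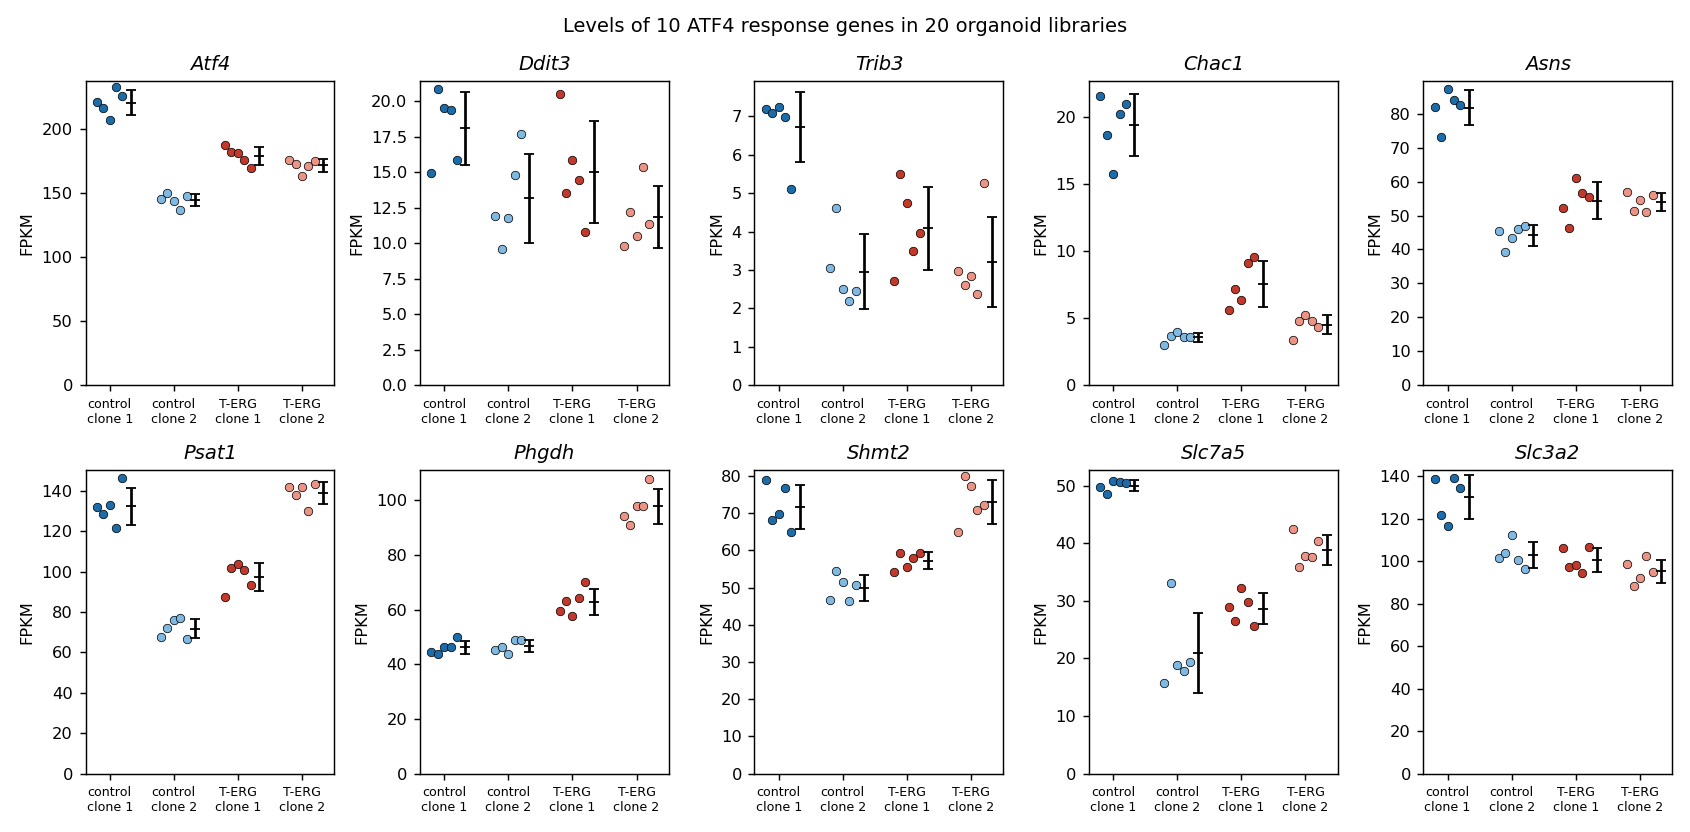
FPKM of each of the 10 genes in the 20 libraries, one panel per gene on its own linear axis, with points for domes and bars for the mean and SD of the 5 domes of each clone. Control clone 1 had the highest mean for 7 genes, while Phgdh was the only one of the 10 with all T-ERG libraries above all control libraries.

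The 3 targets that mark a strong or lasting stress response had the lowest clone means of the set. Chac1 (ENSMUSG00000027313, chromosome 2, 119351242 to 119354326), which encodes an enzyme that degrades glutathione, varied most. It read 21.5, 18.7, 15.7, 20.2 and 20.9 FPKM in control clone 1 and 2.98, 3.68, 3.95, 3.58 and 3.59 FPKM in control clone 2. In T-ERG it read 5.63, 7.16, 6.31, 9.11 and 9.54 FPKM in clone 1 and 3.38, 4.78, 5.25, 4.76 and 4.32 FPKM in clone 2. Every control clone 1 library thus exceeded all other libraries, the T-ERG clones did not overlap, and T-ERG clone 2 overlapped control clone 2. Chac1 fell by 2.16 ± 0.10 between the control clones (log2, SE; limma, adjusted p = 3.16e-08) and by 0.62 ± 0.15 from T-ERG clone 1 to clone 2 (limma, adjusted p = 0.00951).

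Trib3 (ENSMUSG00000032715, chromosome 2, 152337425 to 152344060) encodes a pseudokinase that restrains ATF4 signalling. Control clone 1 held 7.20, 7.09, 7.25, 6.98 and 5.1 FPKM and control clone 2 held 3.05, 4.60, 2.49, 2.19 and 2.44 FPKM, with no overlap. The T-ERG clones ranged from 2.72 to 5.49 and from 2.36 to 5.26 FPKM. They overlapped each other and control clone 2, and the highest library of each exceeded control clone 1 replicate 5. Trib3 fell by 0.99 ± 0.16 between the control clones (limma, adjusted p = 0.000634), and its T-ERG clone difference was -0.28 ± 0.20 (limma, adjusted p = 0.319).

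Ddit3 (ENSMUSG00000025408, chromosome 10, 127290793 to 127296291) encodes CHOP, a factor linked to cell death under unresolved stress. Its clone means were 18.1 ± 2.57 and 13.2 ± 3.15 FPKM in the controls and 15.03 ± 3.58 and 11.8 ± 2.16 FPKM in T-ERG (SD, n = 5 each). Libraries of every neighbouring pair of clones overlapped in this order of means. The fall of 0.45 ± 0.15 between the control clones passed narrowly (limma, adjusted p = 0.0375) and did not pass with no low-value filter (limma, adjusted p = 0.0869). It was also lost on leaving out any 1 of control clone 1 replicates 2, 3 and 4 or control clone 2 replicates 6, 7 and 8 (limma, adjusted p = 0.0766 to 0.0849). The Ddit3 locus overlaps Mbd6 and Mars in the RefSeq annotation, and whether the counting used strand is not stated, so its level is uncertain.

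Because ATF4 acts through C/EBP-ATF composite elements, the promoter windows of the 10 genes were read for the form TGATGNAA on both strands. RefSeq windows of 250 bases before to 50 bases after the start were held for 9 of the genes, with none for Slc7a5 and a pair for Psat1. The form stood in 3.97% of all 32851 windows and in those of 3 of the 9 genes, Trib3, Chac1 and Asns. These are shown because they carry the match, which is in capitals as read on the gene's own strand, 5′ to 3′ (GRCm38.p6; Trib3 chr2:152344011-152344310, minus strand; Chac1 chr2:119350992-119351291, plus strand; Asns chr6:7693160-7693459, minus strand).
Trib3: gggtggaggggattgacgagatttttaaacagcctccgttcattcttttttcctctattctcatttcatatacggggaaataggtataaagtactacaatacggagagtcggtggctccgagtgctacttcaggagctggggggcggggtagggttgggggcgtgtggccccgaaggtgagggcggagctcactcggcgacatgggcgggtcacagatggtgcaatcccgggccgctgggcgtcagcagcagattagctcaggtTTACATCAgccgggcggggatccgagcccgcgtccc
Chac1: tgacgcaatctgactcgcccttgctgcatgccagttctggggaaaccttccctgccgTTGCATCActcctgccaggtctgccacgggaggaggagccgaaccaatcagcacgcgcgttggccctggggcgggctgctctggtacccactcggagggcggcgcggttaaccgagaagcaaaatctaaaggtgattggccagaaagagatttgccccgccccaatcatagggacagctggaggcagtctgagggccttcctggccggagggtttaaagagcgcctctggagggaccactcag
Asns: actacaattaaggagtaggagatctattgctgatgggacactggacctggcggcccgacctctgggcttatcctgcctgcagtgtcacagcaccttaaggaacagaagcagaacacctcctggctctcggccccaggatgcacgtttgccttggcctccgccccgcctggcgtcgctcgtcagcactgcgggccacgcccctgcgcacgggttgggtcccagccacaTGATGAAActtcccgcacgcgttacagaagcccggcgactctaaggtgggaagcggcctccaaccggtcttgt

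In Trib3 the match covers bases 15 to 22 of the transcript and reads TGATGTAA on the opposite strand. In Chac1 it covers bases -193 to -186 and reads TGATGCAA on the opposite strand. In Asns it covers bases -23 to -16 and reads TGATGAAA on the gene's strand. The 3 genes had control clone 1 as their highest clone and control clone 2 as their lowest, as did Atf4 and Slc7a5, 5 of the 10 genes against 5.34% of all tested genes. TGACGTCA (1.79% of windows) and CACGTG (7.15%) stood in none of the members' windows, and CCGGAAGT, an ETS-type form of the family that includes ERG, stood in that of Ddit3 at bases -200 to -193 (3.89% of windows). A match of letters is a description and not a bound site.

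The biosynthetic enzymes did not share one pattern. Asns (ENSMUSG00000029752, chromosome 6, 7675165 to 7693209), which makes asparagine from aspartate, followed the order of Atf4. It read 82.0, 73.3, 87.3, 84.0 and 82.5 FPKM in control clone 1 and 45.3, 39.2, 43.3, 46.1 and 47.1 FPKM in control clone 2. The T-ERG clone means were 54.3 ± 5.46 and 53.9 ± 2.70 FPKM (SD, n = 5 each), between the control means. They overlapped each other, and the lowest T-ERG clone 1 library, at 46.4 FPKM, was within the range of control clone 2. Asns fell by 0.87 ± 0.06 between the control clones (limma, adjusted p = 8.95e-07) and differed by -0.01 ± 0.07 between the T-ERG clones (limma, adjusted p = 0.961).

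Phgdh (ENSMUSG00000053398, chromosome 3, 98313171 to 98339969) catalyses the first step of serine synthesis from glycolysis, and it was the one member that did not pass the test between the control clones. It read 44.5, 43.8, 46.2, 46.2 and 50.1 FPKM in control clone 1 and 45.4, 46.3, 43.8, 49.0 and 49.0 FPKM in control clone 2. T-ERG clone 1 read 59.6, 62.9, 57.5, 64.4 and 69.9 FPKM and T-ERG clone 2 read 94.3, 90.8, 97.9, 97.9 and 107.9 FPKM. All 10 T-ERG libraries were above all 10 control libraries, and the T-ERG clones did not overlap. The control clone difference was 0.02 ± 0.05 (limma, adjusted p = 0.838, with a sign that turned under other scalings), whereas Phgdh rose by 0.63 ± 0.06 from T-ERG clone 1 to clone 2 (limma, adjusted p = 2.15e-05). The pseudogene Phgdh-ps1 stayed at or below 0.8 FPKM throughout.

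Psat1 (ENSMUSG00000024640, chromosome 19, 15905123 to 15925059) encodes the aminotransferase that follows PHGDH in that pathway. It read 132, 128, 133, 122 and 146 FPKM in control clone 1 and 67.4, 72.2, 76.0, 76.9 and 66.5 FPKM in control clone 2. In T-ERG it read 87.2, 101.6, 103.9, 100.8 and 93.6 FPKM in clone 1 and 142, 138, 142, 129.99 and 144 FPKM in clone 2. T-ERG clone 2 and control clone 1 overlapped at the top, T-ERG clone 1 stood between, and control clone 2 was lowest. Psat1 thus fell by 0.87 ± 0.06 from clone 1 to clone 2 in the controls (limma, adjusted p = 6.53e-07) and rose by 0.51 ± 0.05 in T-ERG (limma, adjusted p = 3.31e-05).

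Shmt2 (ENSMUSG00000025403, chromosome 10, 127517123 to 127522444), the mitochondrial enzyme that converts serine to glycine and feeds the folate cycle, had the same order as Psat1 with smaller gaps. Clone means were 71.7 ± 5.88 and 49.9 ± 3.44 FPKM in the controls and 57.2 ± 2.28 and 73.0 ± 5.92 FPKM in T-ERG (SD, n = 5 each). It fell by 0.51 ± 0.07 in the controls (limma, adjusted p = 0.000117) and rose by 0.34 ± 0.06 in T-ERG (limma, adjusted p = 0.00119). Shmt2 overlaps Ndufa4l2 in the annotation, so reads may be shared if strand was not used. The median of Ndufa4l2 was 129.6 FPKM in control clone 1 and lowest, at 2.24 FPKM, in T-ERG clone 2, where Shmt2 was highest.

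The transporter subunits moved unequally. Slc7a5 (ENSMUSG00000040010, chromosome 8, 121881146 to 121907686) encodes LAT1, the light chain that exchanges large neutral amino acids, and Slc3a2 (ENSMUSG00000010095, chromosome 19, 8706882 to 8723369) encodes the heavy chain that carries it to the membrane and also partners other light chains. Slc7a5 read 49.7, 48.5, 50.8, 50.6 and 50.4 FPKM in control clone 1 and 15.8, 33.2, 18.8, 17.8 and 19.5 FPKM in control clone 2. In T-ERG it read 29.0, 26.5, 32.3, 29.8 and 25.7 FPKM in clone 1 and 42.4, 35.8, 37.7, 37.6 and 40.3 FPKM in clone 2. Control clone 1 was above every other library, T-ERG clone 2 came next without overlap, and control clone 2 was lowest apart from its replicate 7, which exceeded all of T-ERG clone 1. Slc7a5 fell by 1.26 ± 0.16 in the controls (limma, adjusted p = 8.18e-05), or by 1.43 without that library, and rose by 0.43 ± 0.07 in T-ERG (limma, adjusted p = 0.00105).

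Slc3a2 was 130.1 ± 10.2 FPKM in control clone 1 and 103 ± 5.96, 100.6 ± 5.49 and 95.2 ± 5.47 FPKM in control clone 2, T-ERG clone 1 and T-ERG clone 2 (SD, n = 5 each). The last 3 overlapped one another in that order. It fell by 0.33 ± 0.06 in the controls (limma, adjusted p = 0.00126), and its T-ERG clone difference was -0.08 ± 0.05 (limma, adjusted p = 0.299). The ratio of Slc7a5 to Slc3a2 FPKM was 0.386 ± 0.0312 in control clone 1, 0.204 ± 0.0664 in control clone 2, 0.286 ± 0.0356 in T-ERG clone 1 and 0.407 ± 0.0247 in T-ERG clone 2.

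Between the control clones, 9 of the 10 genes fell from clone 1 to clone 2 and none rose, or 8 when the Ddit3 call was lost as described. Of all tested genes 38.3% were called, 13.2% lower and 25.1% higher. The median difference was -0.74 over the 10 genes and 0.10 over all tested genes, on the log2 scale. That shift of all genes depended on the scaling: 3233 genes were higher and 1706 lower as deposited, against 2390 and 2287 after centring each library on its median, and 9 of the 10 genes were lower either way. The 5 libraries of each clone did not overlap for 8 of these genes, as for 10.3% of genes in that direction. Between the T-ERG clones, Psat1, Phgdh, Shmt2 and Slc7a5 rose and Chac1 fell, 5 of 10 genes, where 30.5% of all tested genes were called, 17.0% higher and 13.5% lower. The libraries did not overlap for those 4 that rose (12.9% of genes in that direction) nor for Chac1 (10.4%). The highest clone mean was that of control clone 1 for 7 of the 10 genes (25.3% of all tested genes) and that of T-ERG clone 2 for Psat1, Phgdh and Shmt2 (34.8%), and the lowest was that of control clone 2 for 7 genes (14.7%). Psat1, Shmt2 and Slc7a5 fell in the controls and rose in T-ERG, as did 1.19% of all tested genes, whereas Chac1 fell in both, as did 4.64%.

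**Figure D2:**
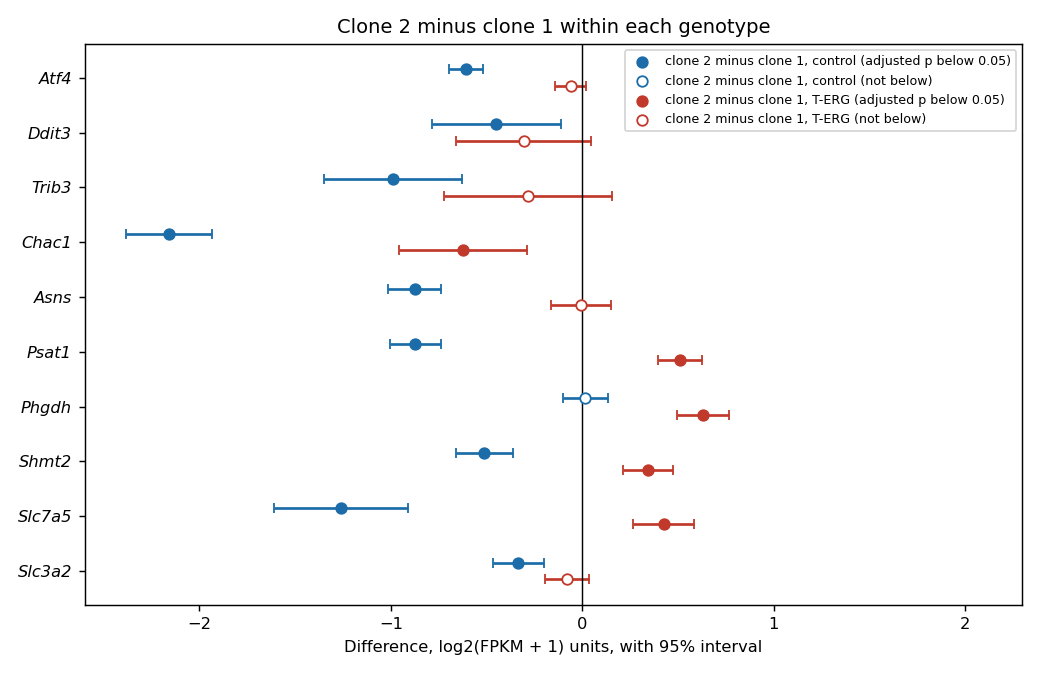
Log2(FPKM + 1) difference from clone 1 to clone 2 for each of the 10 genes, for control and T-ERG organoids, with bars for the 95% confidence interval. Control differences ran from -2.16 for Chac1 to 0.02 for Phgdh, and T-ERG differences from -0.62 for Chac1 to 0.63 for Phgdh.

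The difference between those clone differences, T-ERG minus control, was positive for all 10 genes and was called for 8. Of all tested genes 26.4% were called, 9.75% positive and 16.7% negative. Its median was 0.78 over the 10 genes and -0.05 over all genes. The largest was 1.69 ± 0.18 for Slc7a5 (limma, adjusted p = 4.30e-07), followed by 1.53 ± 0.18 for Chac1 (limma, adjusted p = 1.75e-06) and 1.38 ± 0.08 for Psat1 (limma, adjusted p = 4.33e-11). Ddit3, at 0.14 ± 0.23, did not pass (limma, adjusted p = 0.712). Trib3, at 0.70 ± 0.26, did not pass either (limma, adjusted p = 0.0541). It was called after median centring (limma, adjusted p = 0.0387) and after quantile normalization (limma, adjusted p = 0.0235). It was also called without control clone 1 replicate 5, control clone 2 replicate 7, T-ERG clone 1 replicate 2 or T-ERG clone 2 replicate 9, but not with any other library left out. Over all genes the split of 1258 positive to 2150 negative calls became 1643 to 1743 after quantile normalization. Clone numbers 1 and 2 name clones and do not pair a control clone with a T-ERG clone. The sign, size and calls of this difference of clone differences therefore all follow the labels' numbering.

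Between genotypes, T-ERG against control over the 4 clone means, none of the 10 genes passed, and neither did any of the 12899 tested genes (limma, 0%). At an unadjusted p below 0.05 there were 1089 genes (8.44%), and 1 of them was among the 10. A limma fit on the 20 libraries gave 1398 calls when clones entered as random blocks and 4737 when libraries were taken as independent, and both count domes of 2 clones as replicates. The median difference was -0.09 over the 10 genes and 0.01 over all genes.

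The gene with an unadjusted p below 0.05 was Phgdh, higher in T-ERG by 0.74 ± 0.25 (95% confidence interval 0.09 to 1.39; limma, adjusted p = 0.574). Its 10 libraries against 10 did not overlap, as for 2.50% of tested genes in that direction, and no member had the opposite placement (3.70%). Without T-ERG clone 2 the difference was 0.43, and without T-ERG clone 1 it was 1.06. For Slc3a2, alone among the 10, the means of both T-ERG clones were lower than those of both control clones, at -0.24 ± 0.17 (limma, adjusted p = 0.638), a placement shared by 23.2% of tested genes. Atf4 itself differed by -0.03 ± 0.24 (limma, adjusted p = 0.972), because its T-ERG clones lay between its control clones.

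For the other members the sign rested on single clones. Without control clone 1, the T-ERG difference became 0.28 for Atf4, 0.29 for Asns, 0.22 for Trib3, 0.03 for Ddit3 and 0.58 for Chac1. These had been -0.03, -0.15, -0.27, -0.20 and -0.50 with all 4 clones. Without control clone 2, those of Psat1, Shmt2 and Slc7a5 became -0.18, -0.15 and -0.57, from 0.25, 0.11 and 0.06.

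**Figure D3:**
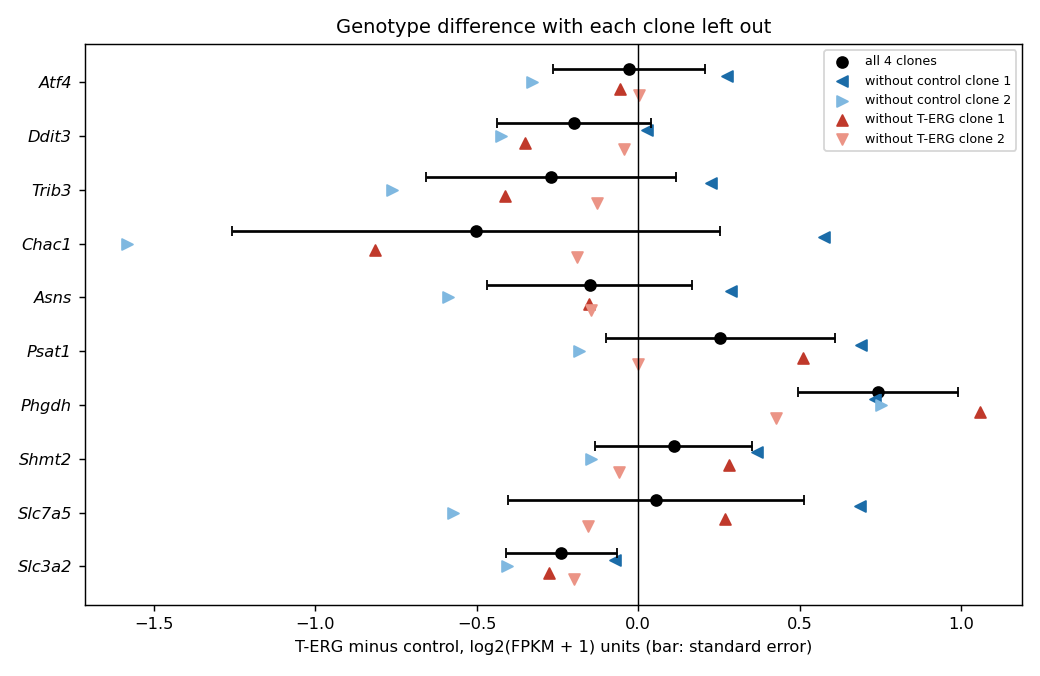
Log2(FPKM + 1) difference of T-ERG minus control for each of the 10 genes over the 4 clone means, with an error bar, and again with each clone left out in turn. Phgdh stayed between 0.43 and 1.06 and Slc3a2 between -0.41 and -0.07, while the other 8 took both signs.

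Most of the spread of these genes lay between clones. The share of log2 variance between the 4 clones was 96.9% for Phgdh, 95.7% for Psat1, 95.4% for Atf4 and Chac1 and 91.8% for Asns, against a median of 55.0% over all tested genes. It was lowest for Ddit3, at 44.5%. Over the 20 libraries, which share 4 clones and so are not independent, Pearson's r with Atf4 was 0.905 for Asns, 0.897 for Chac1, 0.847 for Slc7a5, 0.775 for Trib3, 0.546 for Ddit3 and -0.123 for Phgdh. Psat1 and Shmt2 had r = 0.893. Once each clone's mean was subtracted, r with Atf4 ran from -0.298 for Chac1 and -0.200 for Asns to 0.362 for Slc3a2 and 0.371 for Slc7a5.

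**Figure D4:**
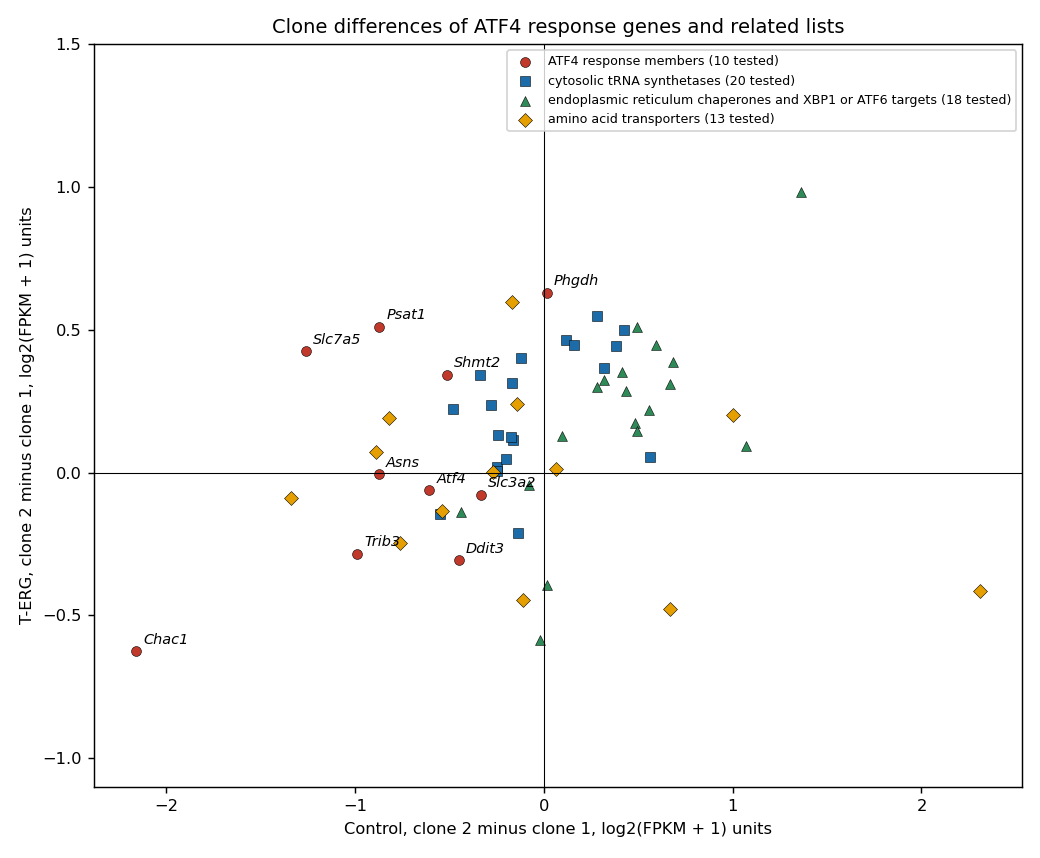
FPKM of Asns and of Phgdh against FPKM of Atf4 in the 20 libraries, coloured by clone, on linear axes. Asns was highest in the clone with the highest Atf4 (r = 0.905), whereas Phgdh was highest in T-ERG libraries, whose Atf4 lay between the control clones (r = -0.123). Both r are on the log2(FPKM + 1) scale.

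Outside the set, the genes whose level over the 20 libraries was most like that of Atf4 were Aldh3a1, an aldehyde dehydrogenase gene (r = 0.974), Rptn, which encodes the epidermal protein repetin (r = 0.970), Psapl1 (r = 0.969), the transcription factor gene Klf4 (r = 0.969) and the homeobox gene Barx2 (r = 0.960). Klf4 was also most like the mean standardised level of the 10 genes (r = 0.987), followed by Dapl1 and Kyat1 (r = 0.983 each). Mean Klf4 was 270.0 and 99.2 FPKM in control clones 1 and 2 and 158 and 162 FPKM in T-ERG clones 1 and 2.

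Markers of squamous epithelium and of the cell cycle also differed between the clones. Both had their highest sums in T-ERG clone 2, while the 10 genes had theirs in control clone 1. The lowest sum was in control clone 2 for the 10 genes and the squamous genes, and in control clone 1 for the cell cycle genes. Median sums of the 10 genes were 791 and 501 FPKM in control clones 1 and 2 and 605 and 684 FPKM in T-ERG clones 1 and 2. The 14 squamous genes summed to 12107 to 13214 FPKM in control clone 1 and 5660 to 5846 in control clone 2. In control clone 2, 12 of 14 were lower (13.2% of all tested genes) and 1 was higher (25.1%). They summed to 18114 to 18719 in T-ERG clone 1 and 21661 to 22327 in T-ERG clone 2, where 10 were higher (17.0%) and 3 lower (13.5%). The 30 cell cycle genes summed to 317 to 356 FPKM in control clone 1 and 672 to 688 in control clone 2. In T-ERG they summed to 627 to 663 in clone 1 and 1132 to 1178 in clone 2. Of these 30 genes, 28 were higher in control clone 2 (25.1% of all tested genes) and 28 in T-ERG clone 2 (17.0%). The part of the squamous and cell cycle markers in the levels of the 10 genes was not tested.

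The other genes of the pathway are given by list, to be read against the shares of all tested genes, which were 25.1% higher and 13.2% lower in control clone 2 and 17.0% higher and 13.5% lower in T-ERG clone 2. Of 8 eIF2 alpha kinases, their partners and phosphatase subunits, 1 was higher and 2 were lower in control clone 2, 3 of 8 against 38.3% of all genes called. None of them, nor any gene of the lists that follow, passed between genotypes (limma, 0% of genes). Impact, which restrains the amino acid sensor GCN2, was 0.41 ± 0.25 above control in T-ERG, and Eif2s1, which encodes eIF2 alpha, was 0.41 ± 0.23 above. Eif2ak3, which encodes the kinase PERK, stood at -0.17 ± 0.18.

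Of 10 partners of ATF4 and other stress factors, 2 were higher (25.1% of all genes) and 5 lower (13.2%) in control clone 2. Atf5, a related factor whose translation is also raised by eIF2 alpha phosphorylation, fell by 1.04 ± 0.07 there (limma, adjusted p = 9.35e-07). Between genotypes, Jdp2, a bZIP repressor, stood at -0.90 ± 0.31, Cebpb, a dimer partner of ATF4, at 0.47 ± 0.14, and Nfe2l2, the NRF2 gene, at 0.44 ± 0.22.

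Of 16 tested further stress targets, 8 were lower (13.2% of all genes) and 4 higher (25.1%) in control clone 2, and 9 were lower (13.5%) and 1 higher (17.0%) in T-ERG clone 2. Both T-ERG means lay below both control means for 8 of 16, against 23.2% of all genes, and above for 0, against 21.7%. The largest of these genotype differences were -1.41 ± 0.49 for Ero1l, an oxidase of the endoplasmic reticulum, -0.96 ± 0.32 for Stc2, a secreted glycoprotein gene, and -0.90 ± 0.25 for Vegfa, the angiogenic growth factor gene. Stc2 was low throughout, at no more than 2.52 FPKM in any library.

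Of 13 further enzymes of serine, glycine and one-carbon metabolism, 5 were higher (25.1% of all genes) and 4 lower (13.2%) in control clone 2, and 5 were higher (17.0%) and 1 lower (13.5%) in T-ERG clone 2. Mthfd2, the mitochondrial folate enzyme that acts after SHMT2, was also highest in control clone 1 and lowest in control clone 2, and fell by 0.94 ± 0.09 between the control clones (limma, adjusted p = 8.20e-06). Psph, which completes serine synthesis, fell there by 0.61 ± 0.15 (limma, adjusted p = 0.00660). Both T-ERG means exceeded both control means for 5 of 13, against 21.7% of all genes, and lay below for 2, against 23.2%. Those above included Tyms at 0.87 ± 0.41 and Shmt1 at 0.81 ± 0.32. Tyms makes thymidylate for DNA synthesis, and the cell cycle sums above were highest in T-ERG clone 2, but a link between them was not tested.

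Of 13 tested further amino acid transporters, 6 were lower (13.2% of all genes) and 2 higher (25.1%) in control clone 2. The glycine transporter gene Slc6a9 fell by 1.34 ± 0.05 (limma, adjusted p = 7.60e-09), while Slc7a8, which encodes LAT2, another light chain of SLC3A2, rose by 2.31 ± 0.10 (limma, adjusted p = 2.21e-08). LAT1 and LAT2 transcripts thus moved in opposite directions between the control clones. Between genotypes the glutamine transporter gene Slc1a5 stood at -0.65 ± 0.32, the cationic amino acid transporter gene Slc7a1 at 0.62 ± 0.26 and the lysosomal transporter gene Slc36a1 at -0.11 ± 0.20. Of 10 enzymes of proline, aspartate and glutamine metabolism, 3 were higher and 2 lower in control clone 2, near the 25.1% and 13.2% of all genes. Glul, the glutamine synthetase gene, stood at -0.84 ± 0.31 between genotypes and Got2, the mitochondrial aspartate aminotransferase gene, at 0.45 ± 0.19.

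The 20 cytosolic tRNA synthetases, which charge tRNAs with amino acids, included 8 lower (13.2% of all genes) and 5 higher (25.1%) in control clone 2 and 11 higher (17.0%) and 1 lower (13.5%) in T-ERG clone 2. Their difference of clone differences was called positive for 12, against 9.75% of all genes, and negative for 1, against 16.7%. Both T-ERG means exceeded both control means for 11 of 20, against 21.7% of all genes, and lay below for 0. The largest of these were 0.62 ± 0.25 for Hars, 0.57 ± 0.21 for Farsb and 0.55 ± 0.26 for Farsa.

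The last list held 18 chaperones and targets of the endoplasmic reticulum branches that run through XBP1 and ATF6. In control clone 2, where 9 of the 10 amino acid stress genes were lower, 12 of these were higher (25.1% of all genes) and 1 lower (13.2%). Hspa5, which encodes the chaperone BiP, rose by 0.55 ± 0.05 (limma, adjusted p = 3.48e-06), and Pdia6, a disulfide isomerase gene, rose by 1.07 ± 0.04 (limma, adjusted p = 6.81e-09). In T-ERG clone 2, where 4 of the 10 amino acid stress genes were also higher, 10 were higher (17.0% of all genes) and 2 lower (13.5%), with Hspa5 up by 0.22 ± 0.05 (limma, adjusted p = 0.00440). Between genotypes the IRE1 alpha sensor gene Ern1 stood at -0.65 ± 0.18, Xbp1 at -0.58 ± 0.19 and Atf6 at -0.39 ± 0.23.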

How the data were processed

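RNA was measured in 20 organoid libraries, each from 1 dome, with 12 PCR cycles and 40-base paired reads per the labels. The authors deposited log2 FPKM per gene, per the file headers. RSEM 1.3.0, DESeq2 and mm10 appear in the submitters' processing notes, with no aligner or annotation given in the sources used here. All values (100%) gave back FPKM with 2 decimals, within 0.001 hundredths. FPKM keeps no counts, so depth and counting error are unknown. In the headers 2 T-ERG columns share a replicate number and were used as unnumbered libraries of T-ERG clone 2. No value column was left out, and 4 whole-genome libraries were not analysed here.

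Genes at 1 FPKM or more in at least 5 libraries (12899) were tested as log2(FPKM + 1), which understates changes of low genes, with limma 3.58.1 in R 4.3.3 and Benjamini-Hochberg adjustment over all of them at a threshold of 0.05. Genotypes were compared over 4 clone means, clones over domes, and the difference of clone differences over 20 libraries. The fits were tested on simulated data. The 10 genes and the gene lists were chosen with earlier results of these data known. From each list the text names up to 3 genes with the largest genotype difference among those whose clone means do not overlap between genotypes, and 1 gene so chosen is not reported here. Slc7a8, Slc6a9, Mthfd2, Psph, Atf5, Hspa5 and Pdia6 were added after their values were seen. Likeness is Pearson's r over the tested genes outside the set, and every r is on the log2(FPKM + 1) scale. Loci and promoter windows are from RefSeq (GRCm38.p6), and all 10 genes matched by symbol. Alternatives were other filters, pseudocounts, scalings and blocks, a fit with no intensity trend, and leaving out each library or clone.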

Additional observations from a re-analysis of the deposited data

Results flagged for a closer look

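Among 40 groups of 5 libraries (10 genes in 4 clones), 3 held a library far from the other 4, and chance alone flags about 1 in 20 groups. Trib3 was lowest in control clone 1 replicate 5, at 5.1 FPKM, with a gap to the next library of 0.890 of the group's range. Trib3 was highest in T-ERG clone 2 replicate 10, at 5.26 FPKM, with a gap of 0.736 of the range. Slc7a5 was highest in control clone 2 replicate 7, at 33.16 FPKM, with a gap of 0.722 of the range. Without that library the Slc7a5 control clone difference went from -1.26 to -1.43.

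With the clones numbered as in the labels, the difference from clone 1 to clone 2 was not the same in the genotypes for 8 of the 10 genes (limma, Benjamini-Hochberg adjusted). Of all tested genes 26.4% were called. The test measures only the spread between domes. Clone numbers pair no control clone with a T-ERG clone, so its sign, size and calls all follow the labels' numbering. On the log2 scale, T-ERG minus control, the difference of clone differences was 0.54 for Atf4, 1.53 for Chac1, 0.87 for Asns and 1.38 for Psat1. It was 0.61 for Phgdh, 0.86 for Shmt2, 1.69 for Slc7a5 and 0.26 for Slc3a2.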

How the results depend on the processing

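No gene was called between genotypes under any filter, pseudocount, scaling or left-out clone (300 to 1971 genes at an unadjusted p below 0.05 with a clone left out), but limma called 1398 with the clone as a random block and 4737 with independent libraries. Phgdh was called in both (adjusted p = 0.000867 and 2.12e-05), and Slc3a2 with independent libraries (adjusted p = 0.00990). Same-numbered domes did not deviate together (r from -0.00742 to 0.0595). A block on dome number gave 4510 control clone calls and, over the 3 numbered T-ERG pairs, 1370, losing Chac1, Shmt2 and Slc7a5 in T-ERG and Ddit3 in the controls. A block on clone number gave 0 genotype calls, with 2142 at an unadjusted p below 0.05. Leaving out 1 dome gave 4539 to 4820 control calls, 3513 to 3797 T-ERG calls and 3220 to 3371 calls for the difference of clone differences.

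The Phgdh control clone difference turned to -0.073 with median centring and -0.047 with quantile normalization; leaving out 1 dome it ran from -0.0016 to 0.045. The Asns T-ERG clone difference ran from -0.060 to 0.037 leaving out 1 dome and was -0.097 with the dome block. With a clone left out, the genotype differences ran from -0.33 to 0.28 for Atf4, -0.42 to 0.027 for Ddit3, -0.76 to 0.22 for Trib3, -1.58 to 0.58 for Chac1, -0.59 to 0.29 for Asns, -0.18 to 0.69 for Psat1, -0.15 to 0.37 for Shmt2 and -0.57 to 0.69 for Slc7a5. The cause was not tested. With 2 clones a genotype and unknown depth, counting error cannot be set beside the spread between domes.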
